A study of Homo sapiens with 12 samples.

Results

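The 50 genes described here encode proteins that license replication origins, start replication or work at the replication fork. They were taken from a list of symbols, and each probe that the platform annotation gives to a listed symbol was used when its detection p-value was under 0.01 on at least 2 of 12 arrays. A probe was found for 48 of the 50 symbols, 70 probes in all, and 61 probes of 46 genes passed the filter, out of 16563 probes, naming 10330 genes, that passed in the whole series. GINS1 and WDHD1 had only probes that failed the filter, and CDT1 and UHRF1 are not analysed here. Just inside the limit lay the DBF4 probe, detected on 3 arrays with a mean log2 intensity of 5.03. Just outside it lay probes detected on 1 array, such as the brighter WDHD1 probe at 5.11 and the dimmer POLA1 probe at 4.95. Each gene is represented by its brightest kept probe, and 14 of the genes had more than 1 kept probe.

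The cells were A375, an established human melanoma line. They received crizotinib, which blocks the kinase activity of the receptors MET and ALK, or ciclopirox, an antifungal agent that chelates iron, each at the concentration that had given 75% inhibition after 72 h, or the vehicle DMSO. The 12 Illumina bead arrays fell into 5 groups, namely crizotinib for 24 h (2 arrays), crizotinib for 8 h (3 arrays), ciclopirox for 24 h (2 arrays), ciclopirox for 8 h (3 arrays) and DMSO control (2 arrays, with no time of harvest in the labels). The replicates are numbered samples that nothing in the labels ties to separate cultures, so the p-values measure a spread that may be technical. All comparisons against control used the same 2 control arrays, and all arrays lay on 1 chip.

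The drug and time of each array rest on the names in the deposited normalized table. A deposited table of scanner signals, named through the samples' descriptions, gives other names. Each normalized array followed 1 scanner column closely (r between 0.907 and 0.971 over 12902 probes, the next best column at most 0.842), but only for the 2 controls was it the described one. Under the normalized table's names, the array most like a given one belonged to the same group in 12 of 12 cases, and under the described names in 7 of 12. These counts would not change if whole groups exchanged names, so they cannot settle which drug and time a group had. Everything below holds under the names of the normalized table, and the values under the described names stand with the dependence on processing. The melanocyte lineage markers SOX10, MIA and EDNRB were above background on all 12 arrays, while MLANA, TYR, TYRP1, S100B and KIT were above it on none. Background was set at a log2 intensity of 5.33, and 43 of the 46 replication genes exceeded it on all 12 arrays. The exceptions were CDC6 (9 arrays), CLSPN (5 arrays) and DBF4 (1 array).

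Replication starts when the origin recognition complex, CDC6 and CDT1 load the MCM helicase on DNA, after which the kinases CDC7-DBF4 and CDK2, with MCM10, CDC45 and the GINS complex, turn the loaded ring into an active helicase. DNA polymerase alpha with primase lays down primers, polymerases epsilon and delta extend them on the sliding clamp PCNA, which the RFC complex loads, and RPA coats the single strands left in between. Many of these genes are induced together before S phase by E2F transcription factors, which the retinoblastoma protein holds back, and their mRNAs are widely used as markers of proliferating cells.

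The start sites of the genes are shown first, because a sequence word shared by many of them can be set beside their change. RefSeq promoter windows of the build GRCh38.p14, running 250 bases before to 50 bases after each start, matched 38 of the 46 genes. The windows were searched on both strands for 4 words of the E2F site, TTTCCCGC, TTTCGCGC, TTTGCCGC and TTTGGCGC. A word was found for 19 of the 38 genes (50%), against 6.95% of the 8373 tested genes of the series with such a window. Counted by window, 39.6% of the 48 replication gene windows held one, against 5.06% of the 12289 windows of the tested genes and 3.31% of all 35116 windows in the table. The 19 genes held 27 such words in all. The pentamer CCAAT was found for 60.5% of the 38 genes and 44.3% of the 8373. One of the CHR words TTTGAA and TTCGAA was found for 7.89% of the 38 genes and 15.8% of the 8373. No searched word contains another, but words can overlap. A word in a window is a description of the letters and not evidence of binding. Below, 14 of the 19 windows are cut to the E2F word nearest the start with 8 bases on each side, on the strand on which that word reads as spelled, and capitals mark every base of an E2F word on either strand. In MCM2, MCM6 and TIPIN a second word on the opposite strand overlaps the first, so the capitals run on, and in MCM7 the word overlaps a CCAAT. They cover the helicase, its activation, the polymerases, the clamp and the fork.
MCM2, chr3:127598405-127598428, plus strand: gaaccactTTTCGCGCGAAAcctg
MCM3, chr6:52284731-52284754, minus strand: tcggaagtTTTCGCGCcggggtgg
MCM6, chr2:135876514-135876537, plus strand: gctggagaTTTCGCGCCAAAcctg
MCM7, chr7:100101391-100101414, minus strand: gggcgacgTTTCGCGCcaatttcg
GINS2, chr16:85688970-85688993, plus strand: gccgccgtTTTCCCGCcacggcga
GINS3, chr16:58392458-58392481, minus strand: gaaactcgTTTCCCGCgcccgggg
CDC7, chr1:91501070-91501093, minus strand: cgcgcgacTTTCCCGCcgcaggtc
POLA2, chr11:65261901-65261924, plus strand: gctcccggTTTCGCGCatgcgtgc
POLE, chr12:132687345-132687368, plus strand: gggagaaaTTTGGCGCgctcccac
POLE2, chr14:49688204-49688227, plus strand: atttgcgaTTTGGCGCcaccgccg
PCNA, chr20:5126666-5126689, plus strand: gcacgcctTTTCCCGCccctgacg
RFC3, chr13:33818086-33818109, minus strand: agacaagtTTTCCCGCgagctcca
TIPIN, chr15:66356732-66356755, plus strand: ccgcagcgTTTGGCGCCAAAtccg
LIG1, chr19:48170443-48170466, minus strand: tcacccctTTTCCCGCcctcctcc
The word TTTCCCGC was the one nearest the start in 8 genes, TTTGGCGC in 6 and TTTCGCGC in 5. In 17 of the 19 genes this word lay between 100 bases before and 50 bases after the start. MCM2, MCM3, MCM6 and MCM7 all held TTTCGCGC as this word.

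Whole windows are given for the 2 genes with the largest falls at 24 h of crizotinib, POLE2 and MCM10, and for POLD2, which had the largest positive value there and was added after the values had been seen. Each reads along its gene, with bases of an E2F word in capitals. POLE2 carries 1 such word across its start, read on the opposite strand, while MCM10 and POLD2 carry none.
POLE2, chr14:49688165-49688464, minus strand: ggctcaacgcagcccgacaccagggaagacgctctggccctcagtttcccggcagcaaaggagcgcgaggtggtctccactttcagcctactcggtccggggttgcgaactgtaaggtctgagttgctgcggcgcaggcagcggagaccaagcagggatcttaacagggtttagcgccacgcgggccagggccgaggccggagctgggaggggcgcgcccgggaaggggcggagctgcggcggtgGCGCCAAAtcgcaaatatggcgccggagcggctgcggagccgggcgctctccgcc
MCM10, chr10:13161308-13161607, plus strand: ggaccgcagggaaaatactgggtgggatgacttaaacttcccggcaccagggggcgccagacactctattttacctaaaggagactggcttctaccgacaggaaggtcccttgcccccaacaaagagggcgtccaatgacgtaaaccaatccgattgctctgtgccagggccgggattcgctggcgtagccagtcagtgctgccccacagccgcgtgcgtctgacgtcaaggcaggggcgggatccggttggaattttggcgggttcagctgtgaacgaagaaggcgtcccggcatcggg
POLD2, chr7:44123499-44123798, minus strand: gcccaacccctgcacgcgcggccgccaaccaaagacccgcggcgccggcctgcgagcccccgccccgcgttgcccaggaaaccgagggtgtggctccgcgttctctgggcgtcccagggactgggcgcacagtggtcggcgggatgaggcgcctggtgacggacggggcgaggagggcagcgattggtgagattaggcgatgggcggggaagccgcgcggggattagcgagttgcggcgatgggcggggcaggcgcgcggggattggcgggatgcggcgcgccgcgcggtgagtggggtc
MCM10 held CCAAT from 118 to 114 and from 105 to 101 bases before its start, and POLD2 held its reverse complement from 68 to 64 bases before and from 13 to 17 bases after its start. POLE2 held neither.

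At 24 h of crizotinib the replication genes were lower as a body. Of the 46 genes, 39 fell and 0 rose (limma, Benjamini-Hochberg adjusted p under 0.05 over 16563 probes), where 14.1% of the 10330 genes fell and 14.2% rose. Their median log2 change against control was -0.78, and that of all 10330 genes was 0.0054 (with the 1 bounded gene at its bound and 2 genes not above background left out it was again -0.78 for the replication genes). Of 15 dimmer kept probes of 14 of these genes, 10 were also lower and 0 higher. The 2 crizotinib arrays lay below both controls in 44 of the 46 genes, against 32.8% of all genes. In bulk RNA fewer cells of a kind and less RNA per cell cannot be told apart, and the arrays had been normalized to nearly equal distributions, so no change in total RNA can be seen. Crizotinib at 24 h had the lowest mean of the 5 groups in 43 of the 46 genes, and the share of all genes with this order was not counted.

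**Figure D1:**
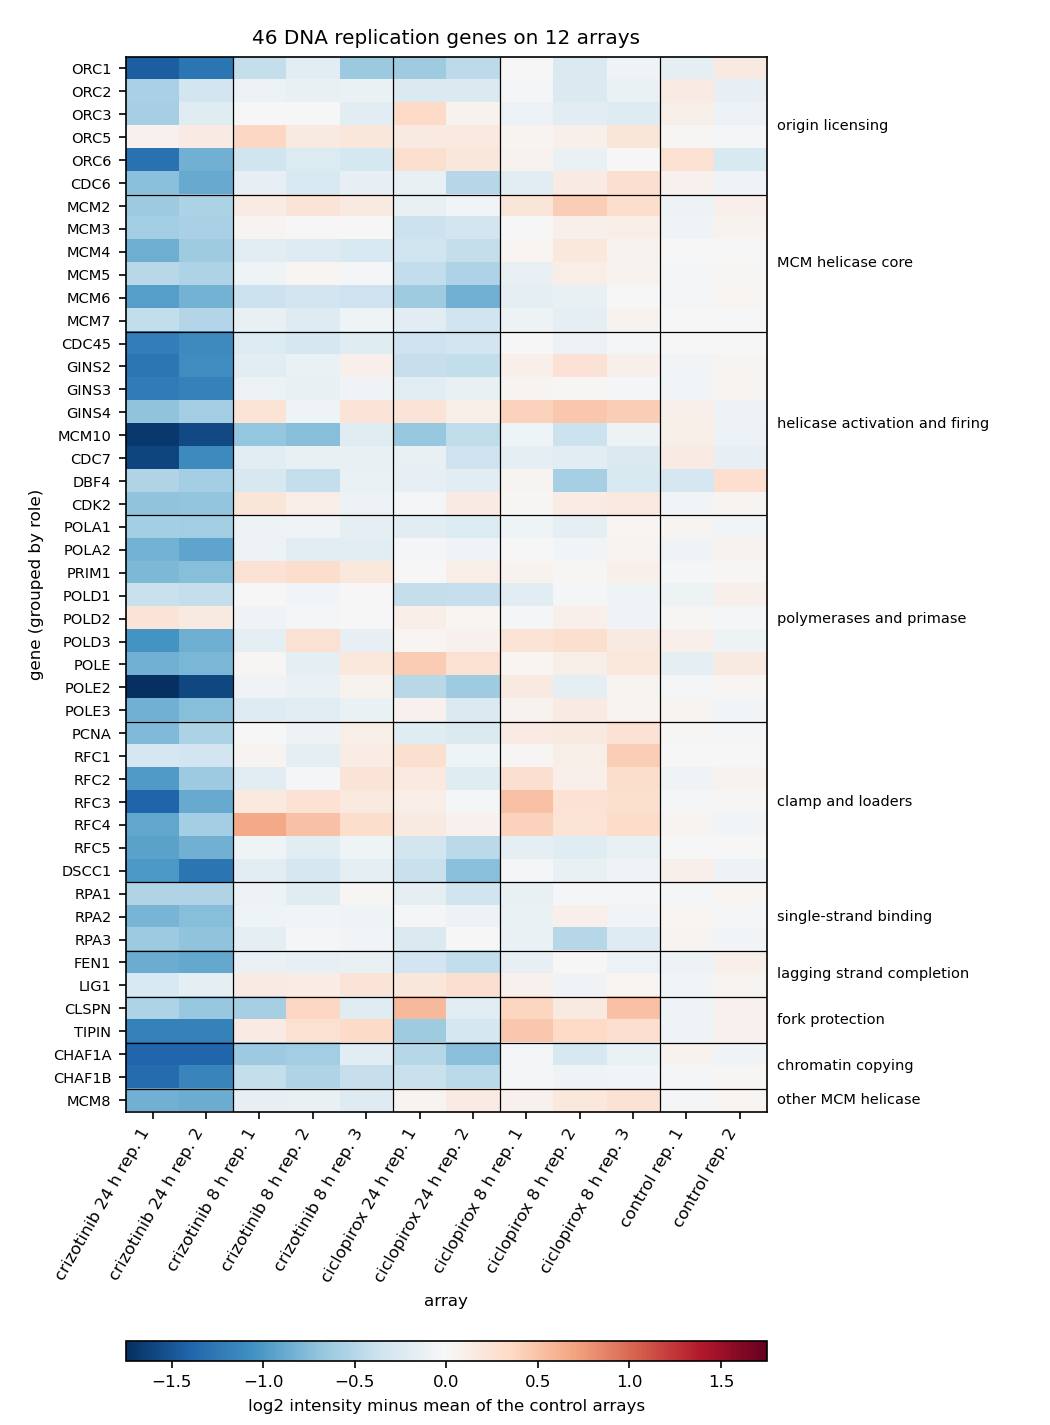
Log2 intensity of 46 replication genes (rows, by role) on each of the 12 arrays (columns, by group), minus the mean of the 2 control arrays; blue is lower and red higher than control. The 2 crizotinib 24 h columns are blue in 44 of the 46 rows, the exceptions being ORC5 and POLD2.

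Among the origin licensing genes 4 of 6 fell at 24 h of crizotinib. ORC1, the largest subunit of the origin recognition complex, had log2 intensities of 6.81 and 6.98 at 24 h of crizotinib, 7.83, 8.07 and 7.60 at 8 h of crizotinib, 7.64 and 7.80 at 24 h of ciclopirox, 8.24, 8.01 and 8.20 at 8 h of ciclopirox and 8.10 and 8.40 in controls. The 24 h crizotinib arrays lay below all 10 others, and ORC1 was 2.57-fold lower than in control (log2 change -1.36, SE 0.16, adjusted p = 0.000266). ORC6, the subunit that contacts the loading helicase, stood at 7.84 and 8.32 on the 24 h crizotinib arrays, 8.81, 8.92 and 8.85 at 8 h of crizotinib, 9.44 and 9.35 at 24 h of ciclopirox, 9.22, 9.04 and 9.14 at 8 h of ciclopirox and 9.42 and 8.89 in controls. Its 24 h crizotinib arrays also lay below all others, although the control arrays were themselves apart, and its change was -1.07 (SE 0.18, adjusted p = 0.00193). ORC2 fell by less, with -0.45 (SE 0.12, adjusted p = 0.0208). CDC6, which recruits the helicase to the recognition complex, was above background in both controls at 5.90 and 5.74 and on neither 24 h crizotinib array, at 5.09 and 4.94. Its difference is therefore a bound, at least 1.40-fold lower (adjusted p = 0.00601). ORC3 gave -0.40 (SE 0.15, adjusted p = 0.0765) and was not called. ORC5 had 10.51 and 10.58 at 24 h of crizotinib and 10.46 and 10.42 in controls, a change of 0.11 (95% interval -0.12 to 0.33), and its dimmer second probe went the other way.

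All 6 genes of the MCM ring, the core of the replicative helicase, fell at 24 h of crizotinib. In their brightest probes the changes lay between -0.89 and -0.47, with a median of -0.59. MCM6 had the largest fall by these probes. Its log2 intensities were 11.05 and 11.19 at 24 h of crizotinib, 11.64, 11.67 and 11.65 at 8 h of crizotinib, 11.39 and 11.17 at 24 h of ciclopirox, 11.85, 11.88 and 12.02 at 8 h of ciclopirox and 11.98 and 12.05 in controls. The 24 h arrays of both drugs overlapped and lay below all 8 h and control arrays, and the change under crizotinib was -0.89 (SE 0.11, adjusted p = 0.000238). MCM4 stood at 11.36 and 11.59 at 24 h of crizotinib, 12.01, 11.99 and 11.94 at 8 h of crizotinib, 11.86 and 11.80 at 24 h of ciclopirox, 12.25, 12.40 and 12.27 at 8 h of ciclopirox and 12.22 and 12.20 in controls. None of its 5 groups overlapped another, and crizotinib at 24 h changed it by -0.74 (SE 0.10, adjusted p = 0.000598). MCM2, MCM3, MCM5 and MCM7 changed by -0.59, -0.59, -0.51 and -0.47 (SE between 0.091 and 0.11).

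By the brightest probes, the genes that switch the helicase on had a larger median change than the ring. Of the 8 genes of helicase activation and firing 7 fell, with a median change of -1.17. MCM10, which helps to open the helicase at the origin, had 7.99 and 8.09 at 24 h of crizotinib, 9.00, 8.93 and 9.46 at 8 h of crizotinib, 9.02 and 9.24 at 24 h of ciclopirox, 9.60, 9.29 and 9.59 at 8 h of ciclopirox and 9.78 and 9.57 in controls. The 24 h crizotinib arrays stood apart from the other 10, 3.1-fold below control (log2 change -1.63, SE 0.18, adjusted p = 0.000159), and a second MCM10 probe gave -1.75. CDC7, the kinase that phosphorylates the MCM ring, had 6.60 and 7.09 at 24 h of crizotinib, 8.02, 8.08 and 8.07 at 8 h of crizotinib, 8.08 and 7.85 at 24 h of ciclopirox, 8.04, 8.02 and 7.95 at 8 h of ciclopirox and 8.36 and 8.06 in controls. Its 24 h crizotinib arrays lay below all others, and the change was -1.36 (SE 0.16, adjusted p = 0.00021). CDC45 and the GINS subunits join the MCM ring in the active helicase. CDC45 had 10.10 and 10.20 at 24 h of crizotinib and 11.31 and 11.31 in controls, and no other array was under 10.95. GINS3 was at 8.65 and 8.69 against 9.83 and 9.91, a change of -1.21 (SE 0.086, adjusted p = 1.46e-05). GINS2, GINS4 and CDK2 fell too, by 1.18, 0.66 and 0.69 on the log2 scale. DBF4, the activating subunit of CDC7, was above background on 1 control array and on no other, so it had no usable change.

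Of the 9 polymerase and primase genes 8 fell. POLE2, an accessory subunit of polymerase epsilon, had the largest fall of all 46 genes, with 7.64 and 7.80 at 24 h of crizotinib, 9.33, 9.27 and 9.45 at 8 h of crizotinib, 8.91 and 8.77 at 24 h of ciclopirox, 9.55, 9.23 and 9.45 at 8 h of ciclopirox and 9.36 and 9.43 in controls. It was lowest at 24 h of crizotinib and next at 24 h of ciclopirox, while the arrays of the other 3 groups overlapped, and it was 3.18-fold below control (log2 change -1.67, SE 0.12, adjusted p = 1.67e-05). POLE, the catalytic subunit of the same enzyme, had 7.82 and 7.86 at 24 h of crizotinib, 8.67, 8.49 and 8.83 at 8 h of crizotinib, 9.10 and 8.92 at 24 h of ciclopirox, 8.69, 8.75 and 8.83 at 8 h of ciclopirox and 8.49 and 8.82 in controls. The arrays of the 2 drugs at 24 h lay on opposite sides of control, and the crizotinib change was -0.81 (SE 0.14, adjusted p = 0.00215). POLD1, the catalytic subunit of polymerase delta, fell by less, with 9.19 and 9.16 at 24 h of crizotinib against 9.48 and 9.66 in controls (log2 change -0.40, SE 0.10, adjusted p = 0.0122). POLD2, its regulatory subunit, had 10.82 and 10.76 at 24 h of crizotinib, 10.53, 10.55 and 10.59 at 8 h of crizotinib, 10.71 and 10.62 at 24 h of ciclopirox, 10.57, 10.68 and 10.51 at 8 h of ciclopirox and 10.61 and 10.58 in controls. Its 24 h crizotinib arrays were the highest of the 12, with a change of 0.20 that was not called (95% interval -0.0064 to 0.40, adjusted p = 0.144). POLD3, POLA2, POLE3, PRIM1 and POLA1 changed by -0.95, -0.87, -0.79, -0.77 and -0.60.

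Of the clamp and its loaders 6 of 7 fell at 24 h of crizotinib. DSCC1, a subunit of an alternative clamp loader, had 8.57 and 8.30 at 24 h of crizotinib, 9.38, 9.29 and 9.42 at 8 h of crizotinib, 9.18 and 8.85 at 24 h of ciclopirox, 9.56, 9.44 and 9.52 at 8 h of ciclopirox and 9.67 and 9.48 in controls. The groups were ordered with crizotinib at 24 h lowest and ciclopirox at 24 h next, both clear of the rest, and the crizotinib change was -1.14 (SE 0.14, adjusted p = 0.000251). RFC3, a small subunit of the loader, had 7.49 and 8.00 at 24 h of crizotinib, 9.05, 9.14 and 9.04 at 8 h of crizotinib, 8.99 and 8.86 at 24 h of ciclopirox, 9.39, 9.14 and 9.17 at 8 h of ciclopirox and 8.86 and 8.90 in controls. The 24 h crizotinib arrays lay below all 10 others, with a change of -1.14 (SE 0.15, adjusted p = 0.000542). RFC5, RFC2, RFC4 and PCNA fell by 0.89, 0.81, 0.75 and 0.67 on the log2 scale, and RFC1, the large subunit, gave -0.32 and was not called (95% interval -0.67 to 0.034).

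Genes of the remaining roles fell as well. All 3 RPA subunits did, RPA2 with 11.19 and 11.27 at 24 h of crizotinib, 11.94, 11.96 and 11.92 at 8 h of crizotinib, 11.97 and 11.92 at 24 h of ciclopirox, 11.89, 12.09 and 11.95 at 8 h of ciclopirox and 12.04 and 11.97 in controls. The 10 other RPA2 arrays lay between 11.89 and 12.09, above both (log2 change -0.77, SE 0.10, adjusted p = 0.000293). FEN1, the nuclease that trims the flaps of Okazaki fragments, had 11.94 and 11.91 at 24 h of crizotinib, 12.69, 12.66 and 12.68 at 8 h of crizotinib, 12.46 and 12.38 at 24 h of ciclopirox, 12.66, 12.81 and 12.70 at 8 h of ciclopirox and 12.72 and 12.89 in controls. The 24 h arrays of crizotinib were lowest and those of ciclopirox next, and the fall under crizotinib was 1.84-fold (log2 change -0.88, SE 0.10, adjusted p = 0.000142). LIG1, the ligase that then seals the nick, gave -0.21 (95% interval -0.42 to 0.0054) and was not called. TIPIN, which keeps the fork stable together with TIMELESS, was at 7.59 and 7.59 on the 24 h crizotinib arrays, 8.91, 9.04 and 9.11 at 8 h of crizotinib, 8.16 and 8.46 at 24 h of ciclopirox, 9.25, 9.12 and 9.07 at 8 h of ciclopirox and 8.70 and 8.85 in controls. Both drugs' 8 h arrays lay above the controls and both drugs' 24 h arrays below them, with a change of -1.18 at 24 h of crizotinib (SE 0.12, adjusted p = 0.000117). CLSPN, the checkpoint adaptor, was not above background on either of the 24 h crizotinib or the control arrays and has no fold. CHAF1A and CHAF1B, subunits of the factor that places histones on new DNA, fell by 2.61-fold and 2.38-fold. CHAF1A had 6.86 and 6.86 at 24 h of crizotinib, 7.61, 7.63 and 8.05 at 8 h of crizotinib, 7.74 and 7.51 at 24 h of ciclopirox, 8.22, 7.96 and 8.12 at 8 h of ciclopirox and 8.31 and 8.17 in controls, so the 24 h crizotinib arrays were lowest while 8 h of crizotinib and 24 h of ciclopirox overlapped each other below control. MCM8, a helicase of recombination rather than of the fork, had 7.06 and 7.03 at 24 h of crizotinib, 7.76, 7.76 and 7.68 at 8 h of crizotinib, 7.94 and 8.04 at 24 h of ciclopirox, 7.97, 8.07 and 8.16 at 8 h of ciclopirox and 7.86 and 7.93 in controls, with crizotinib below control at both times and ciclopirox above it.

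**Figure D2:**
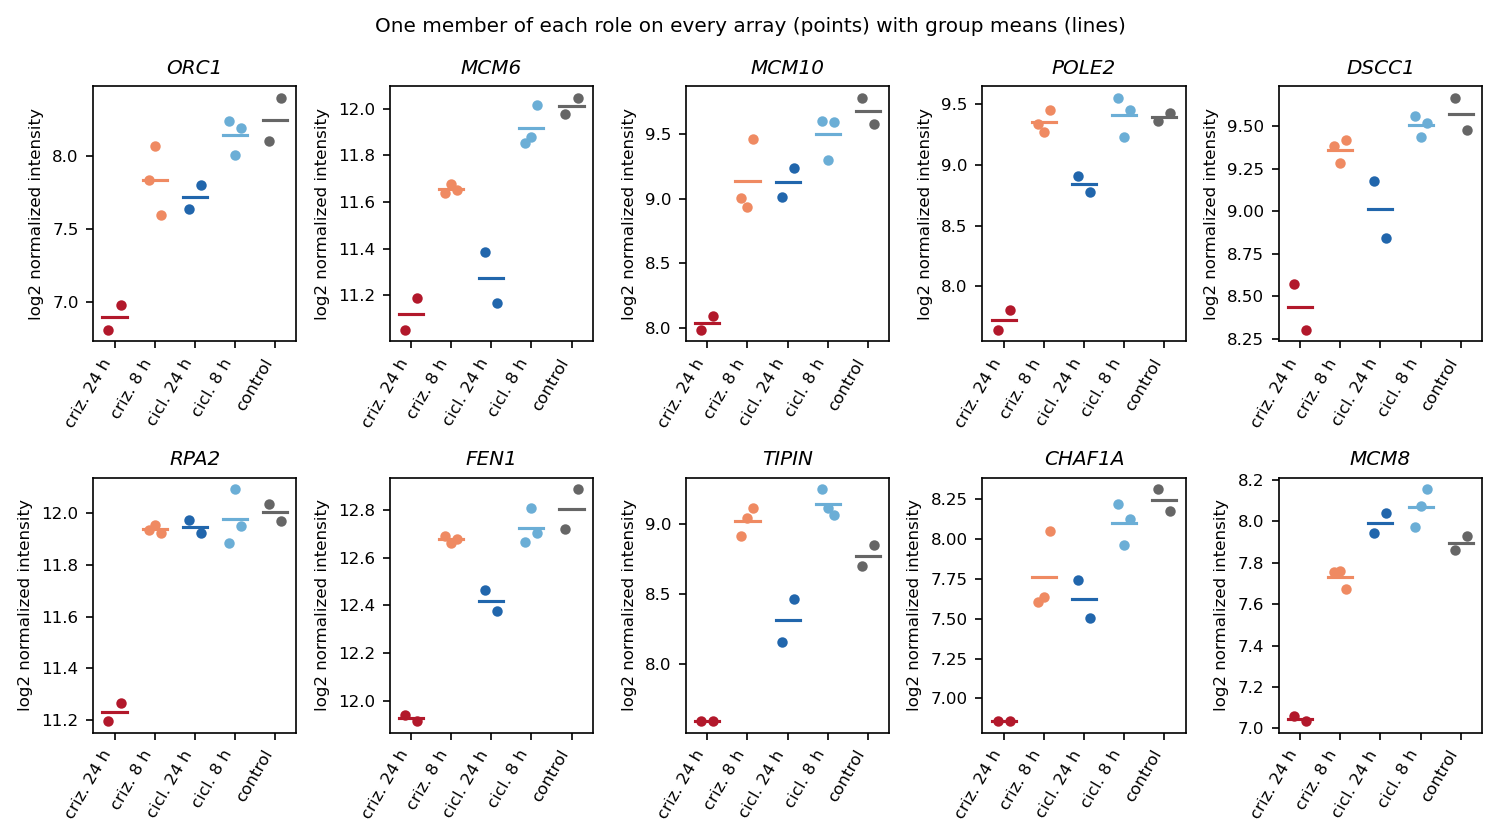
Log2 normalized intensity (vertical axis) of the gene of each role with the largest change at 24 h of crizotinib, for every array (points) of the 5 groups, with group means (lines). In all 10 panels the 2 crizotinib 24 h arrays are the lowest, except that MCM6 also has a ciclopirox 24 h array in their range.

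The presence of an E2F word did not sort the genes by the size of their fall. At 24 h of crizotinib 16 of the 19 genes with a word fell, with a median change of -0.81, and 15 of the 19 without one fell, with a median of -0.79. Of the 2 largest falls, POLE2 has a searched word across its start and MCM10 has none in the window printed above. That MCM10 window does hold tttggcgg, which departs from the searched word TTTGGCGC in its last base only. Such near forms were not counted, so genes listed as without a word may still hold a related one. LIG1, ORC3 and CLSPN have a word and were not called, but CLSPN was above background in neither group. CLSPN, with a word, and DBF4, without one, had no usable change and are still in these counts and medians.

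**Figure D3:**
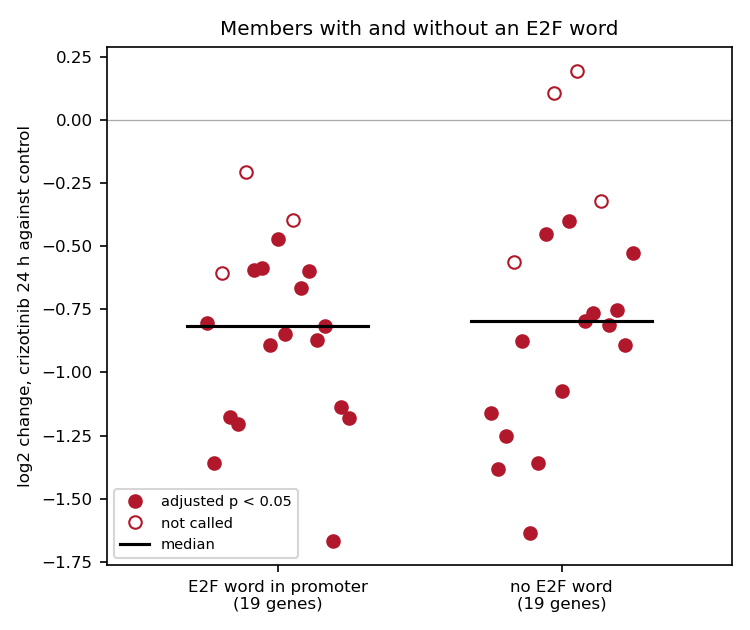
Log2 change at 24 h of crizotinib against control (vertical axis) of the 38 genes with a promoter window, with (left) and without (right) an E2F word; each point is a gene, filled where the adjusted p was under 0.05, and the line is the median. The medians, -0.81 and -0.79, lie close together and the points of both columns cover a similar range. CLSPN and DBF4, which had no usable change, are included at their fitted values.

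Many other genes of the same pathways also fell at 24 h of crizotinib, where 14.1% of all 10330 genes fell and 14.2% rose. Of 26 tested genes from a list of 29 other replication genes 19 fell and 0 rose, with a median change of -0.79. GMNN, which blocks re-licensing of fired origins, gave -1.27 (SE 0.14, adjusted p = 0.000129), and the histone chaperone ASF1B -1.20 (SE 0.10, adjusted p = 3.52e-05). All 7 tested of 9 nucleotide supply genes fell, RRM2, the small subunit of ribonucleotide reductase, by most with -1.52 (SE 0.14, adjusted p = 5.64e-05). Of 17 tested regulators of the G1/S step 8 fell and 2 rose, although E2F8, counted among the lower genes, was above background in neither group. The activating factor E2F2 gave -1.78 (SE 0.13, adjusted p = 1.67e-05). Of the other activating factors, E2F3 gave -0.53 (limma adjusted p = 0.00753) and E2F1 0.37, which was not called (limma adjusted p = 0.36). The inhibitor of cyclin-dependent kinases CDKN1A rose and was above background on neither control array, so it was at least 5.77-fold higher (adjusted p = 1.67e-05). Of 7 tested replication checkpoint kinases and their partners 3 fell, WEE1 by 0.97 and CHEK1 by 0.68 on the log2 scale. These lists were drawn up with earlier results of these data known.

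The summed intensities of other cell types' markers were higher at 24 h of crizotinib than in controls, also where no marker exceeded background. Of 6 leukocyte markers 5 had a named probe, and only CD68, also a lysosomal protein, was above background on all arrays. The summed intensity of these 5 was 1077 to 1123 at 24 h of crizotinib and 542 to 548 in controls, with PTPRC, CD3E and LYZ above background on no array. The summed intensity of 7 fibroblast markers was 291 to 316 at 24 h of crizotinib and 232 to 246 in controls, with LUM alone above background on all arrays and COL1A2, COL3A1, DCN and PDGFRA on none. Of 6 keratinocyte markers 4 had a named probe, and none of these exceeded background on any array. Their summed intensity was 85.7 to 85.9 at 24 h of crizotinib and 73.9 to 78.4 in controls. That of 4 endothelial markers was 94 to 105 at 24 h of crizotinib and 78 to 90 in controls. None of the endothelial markers was above background on all arrays, and VWF and CDH5 were above it on none. The part of these markers in the fall of the replication genes was not tested.

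At 24 h of ciclopirox fewer replication genes fell, among them 4 of the 6 genes of the helicase ring. Of the 46 genes 12 fell and 0 rose, where 3.49% of all genes fell and 4.13% rose, and the median change was -0.20. They were MCM3, MCM4, MCM5 and MCM6 of the MCM ring, CDC45, POLD1, POLE2, RFC5, DSCC1, FEN1, CHAF1A and CHAF1B. MCM6, with the per-array values above, changed most at -0.74 (SE 0.11, adjusted p = 0.00354), a fall of 1.67-fold. CHAF1A gave -0.62 (SE 0.16, adjusted p = 0.043), DSCC1 -0.56 (SE 0.14, adjusted p = 0.0357) and POLE2 -0.55 (SE 0.12, adjusted p = 0.0262). MCM5 had 9.73 and 9.62 at 24 h of ciclopirox and 10.15 and 10.18 in controls, with no overlap (log2 change -0.49, SE 0.10, adjusted p = 0.0201). The ring had a median change of -0.37 with 4 of 6 genes lower, and the 40 genes outside it a median of -0.14 with 8 lower. Of the 15 dimmer kept probes, limma called 0 at 24 h of ciclopirox (3 at an unadjusted p under 0.05). The second MCM3 probe gave -0.21 (adjusted p = 0.383) where the counted one gave -0.35, and the second FEN1 probe -0.13 (adjusted p = 0.539) where the counted one gave -0.38. The second MCM4 probe gave -0.38 (adjusted p = 0.0701), against -0.38 for the counted one. No licensing, RPA or fork protection gene was called. The count rested on single arrays, being 1 without either control, 4 without replicate 1 and 2 without replicate 2 of ciclopirox at 24 h.

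**Figure D4:**
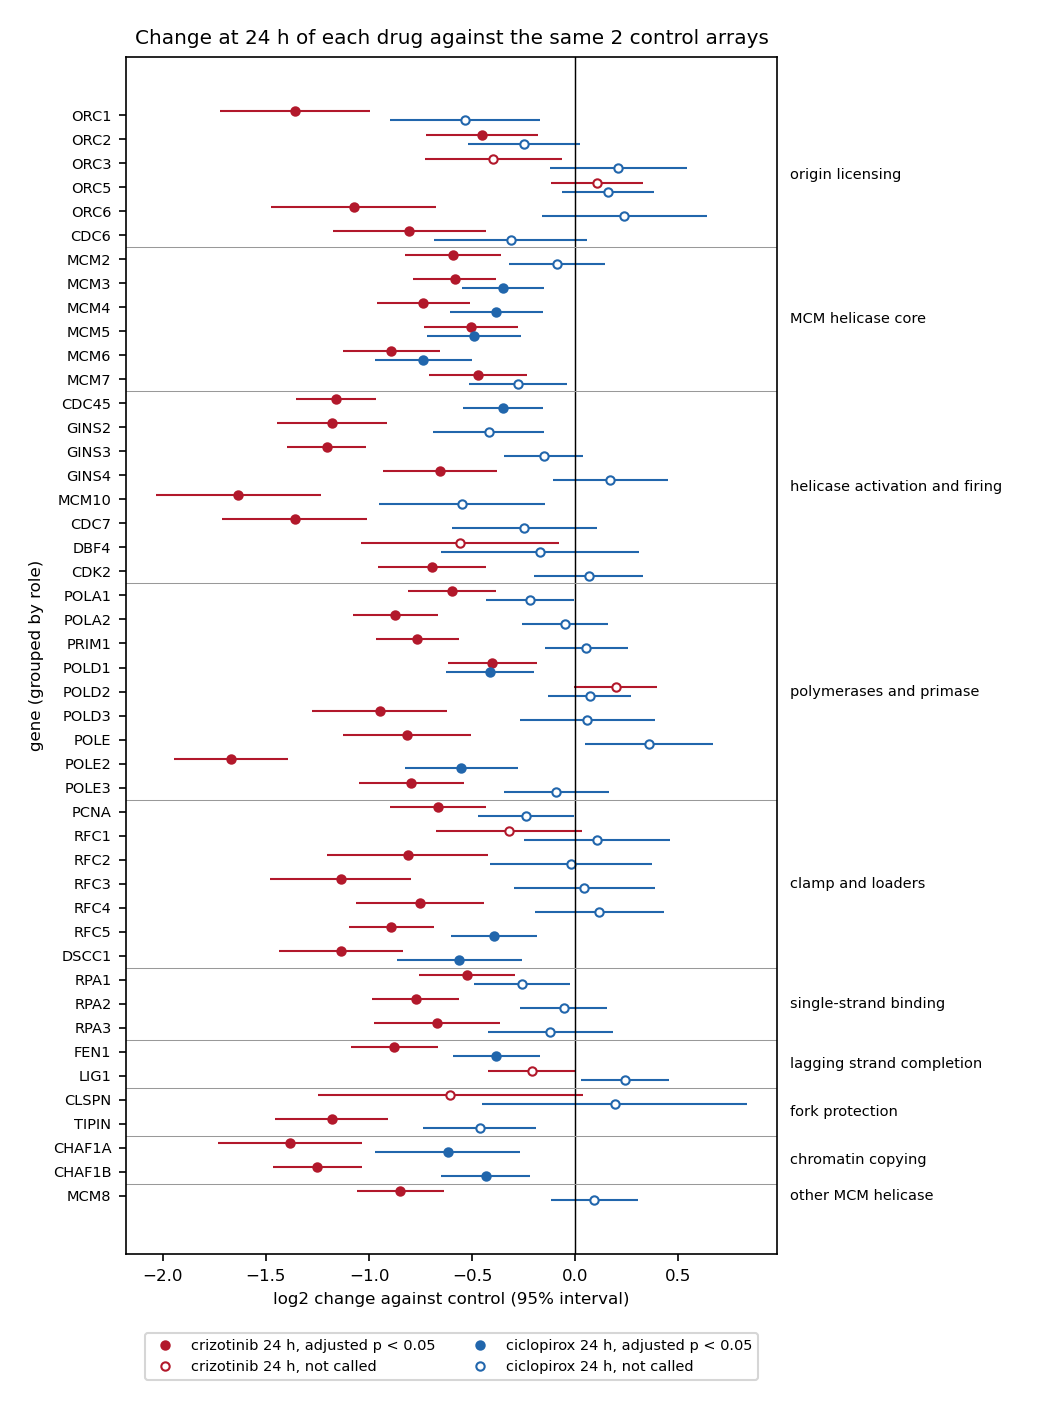
Log2 change against control (horizontal axis) of the 46 genes at 24 h of crizotinib (red) and of ciclopirox (blue), with 95% intervals; filled points have an adjusted p under 0.05. Crizotinib lies further to the left in most rows outside the MCM ring, while the pairs of MCM5, MCM6 and POLD1 nearly coincide; both drugs share the 2 control arrays.

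The 2 drugs were also set against each other at 24 h, which uses no control. The replication genes were lower under crizotinib in 33 of 46 cases and higher in 0, where 10.6% of all genes were lower and 11.2% higher, with a median difference of -0.71. Outside the MCM ring 31 of 40 genes were lower, with a median of -0.76. Within it 2 of 6 were lower, MCM2 by -0.51 (SE 0.11, adjusted p = 0.00789) and MCM4 by -0.35 (SE 0.10, adjusted p = 0.0338), with a median of -0.21. The dimmer probes of ring genes lay further apart than the counted ones. Their means under crizotinib and ciclopirox were 9.11 and 9.79 for MCM3, 9.10 and 9.67 for MCM4, and 8.74 and 9.05 for MCM7. The counted probes had 12.02 and 12.25 for MCM3, 11.47 and 11.83 for MCM4, and 13.13 and 13.32 for MCM7. The largest difference was that of ORC6, at -1.31 (SE 0.18, adjusted p = 0.000809). RFC3 followed with -1.18 (SE 0.15, adjusted p = 0.00059) and POLE with -1.17 (SE 0.14, adjusted p = 0.000328). MCM5 had 9.69 and 9.63 under crizotinib and 9.73 and 9.62 under ciclopirox, and the 95% interval of its difference was -0.24 to 0.21. For POLD1, with 9.19 and 9.16 under crizotinib and 9.16 and 9.17 under ciclopirox, the interval was -0.20 to 0.22, and for MCM6 it was -0.39 to 0.08. LIG1 and ORC3, not called against control, were lower under crizotinib than under ciclopirox (differences -0.45 and -0.61, adjusted p = 0.00902 and 0.0173).

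At 8 h few replication genes were called. Under crizotinib 1 of 46 fell and 1 rose, where 4.13% of all genes fell and 3.45% rose, with a median change of -0.086. By limma 10 genes had an unadjusted p under 0.05 in either direction, and 33 of the 46 fitted changes were below 0. The 8 h crizotinib arrays lay below both controls in 18 genes, against 25.4% of all genes. They lay above both in 7, against 18.6% of all genes. CHAF1B fell, with 8.66, 8.54 and 8.66 at 8 h of crizotinib, 7.72 and 7.91 at 24 h of crizotinib, 8.67 and 8.59 at 24 h of ciclopirox, 9.04, 9.01 and 9.02 at 8 h of ciclopirox and 9.04 and 9.09 in controls (log2 change -0.45, SE 0.089, adjusted p = 0.018). Its 8 h crizotinib arrays overlapped those of ciclopirox at 24 h, and its 24 h crizotinib arrays were the lowest. RFC4 rose, with 11.09, 10.94 and 10.73 at 8 h of crizotinib, 9.52 and 9.84 at 24 h of crizotinib, 10.59 and 10.51 at 24 h of ciclopirox, 10.83, 10.67 and 10.76 at 8 h of ciclopirox and 10.48 and 10.38 in controls (log2 change at 8 h 0.49, SE 0.13, adjusted p = 0.0463). Its mean was highest at 8 h of crizotinib and lowest at 24 h of the same drug, with no overlap between these 2 groups. A second, nearly as bright RFC4 probe gave 0.23 at 8 h of crizotinib (SE 0.12, adjusted p = 0.254), so the call rests on 1 of 2 probes. MCM6 gave -0.36 with an adjusted p of 0.0521. The count of 2 became 0 without either control or without replicate 2 of crizotinib at 8 h, 1 without replicate 1 and 4 without replicate 3.

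At 8 h of ciclopirox 0 genes fell and 1 rose, where 5.43% of all genes fell and 3.29% rose, and the median change was 0.013. At an unadjusted p under 0.05 the number in either direction was 6. The gene was GINS4, with 7.02, 7.09 and 7.04 at 8 h of ciclopirox, 5.91 and 6.01 at 24 h of crizotinib, 6.86, 6.54 and 6.85 at 8 h of crizotinib, 6.85 and 6.73 at 24 h of ciclopirox and 6.71 and 6.52 in controls (log2 change 0.43, SE 0.11, adjusted p = 0.0458), and leaving out any of the 8 h ciclopirox or control arrays ended its call. Its 8 h ciclopirox arrays were the highest of the 12 and its 24 h crizotinib arrays the lowest. TIPIN, with its 8 h ciclopirox arrays at 9.25, 9.12 and 9.07 and its controls at 8.70 and 8.85, gave 0.37 (adjusted p = 0.0725). Between the drugs at 8 h, 3 genes were lower under crizotinib and 0 higher, where 3.89% of all genes were lower and 4.18% higher. They were CHAF1B (-0.41, SE 0.079, adjusted p = 0.0148), with the values above, MCM8 (-0.34, adjusted p = 0.0298) and MCM4 (-0.33, adjusted p = 0.0428), whose second probe gave -0.22 (adjusted p = 0.194). That count was 1 without replicate 1 of crizotinib or replicate 2 of ciclopirox at 8 h, and 0 without replicate 2 of crizotinib or replicate 3 of ciclopirox.

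Replication genes were lower at 24 h than at 8 h under both drugs, in comparisons that use no control. Under crizotinib 40 of 46 genes were lower at 24 h than at 8 h and 0 higher, where 16.3% of all genes were lower and 20.0% higher, with a median change of -0.73. POLE2 gave -1.63 (SE 0.11, adjusted p = 8.49e-06), TIPIN -1.43 (SE 0.11, adjusted p = 1.58e-05) and RFC3 -1.34 (SE 0.14, adjusted p = 8.38e-05). POLD2 was not called, with 0.23 (adjusted p = 0.0537). Under ciclopirox 15 of 46 were lower at 24 h than at 8 h and 0 higher, where 7.28% of all genes were lower and 10.9% higher, with a median of -0.20. TIPIN led with -0.83 (SE 0.11, adjusted p = 0.00141), before MCM6 with -0.64 (SE 0.10, adjusted p = 0.0024) and POLE2 with -0.57 (SE 0.11, adjusted p = 0.00889). Of the MCM ring 6 of 6 genes were lower with time under crizotinib and 5 of 6 under ciclopirox, MCM7 giving -0.20 under the second drug (adjusted p = 0.183). The ciclopirox count was 8 without replicate 1 and 4 without replicate 2 of the 24 h arrays, and 8 without replicate 3 of the 8 h arrays.

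The time changes of the 2 drugs were then subtracted from each other. The fall with time was larger under crizotinib in 43 of the 46 genes, and the difference was called for 19 of them and for 0 in the other direction, where 5.00% of all genes were called lower and 4.25% higher. The median difference was -0.52, and that of all 10330 genes was 0.013. The correlation of the 2 time changes was 0.43 across the 46 genes and 0.51 across the 10330 genes of the series, which are not independent and share the 12 arrays and the normalization. CDC7 differed most, at -1.17 (SE 0.20, adjusted p = 0.008), since it fell by 1.21 on the log2 scale under crizotinib and changed by -0.042 under ciclopirox. POLE gave -1.08 (SE 0.18, adjusted p = 0.00652) and POLE2 -1.06 (SE 0.16, adjusted p = 0.00367). PRIM1, the catalytic primase, differed by -1.01 (SE 0.12, adjusted p = 0.00105). Its arrays had 9.59 and 9.62 at 24 h of crizotinib and 10.62, 10.68 and 10.55 at 8 h of crizotinib, then 10.36 and 10.49 at 24 h of ciclopirox and 10.43, 10.39 and 10.46 at 8 h of ciclopirox. The 2 times overlapped under ciclopirox and not under crizotinib. In the MCM ring the limma test called 0 of 6 differences, with 1 at an unadjusted p under 0.05. The ring's intervals were -0.27 to 0.32 for MCM5 and -0.20 to 0.41 for MCM6, and its median was -0.075, against -0.56 for the 40 genes outside it. These values use the brightest probe. In the dimmer MCM3 probe the mean went from 10.30 to 9.11 under crizotinib and from 10.35 to 9.79 under ciclopirox. That of MCM4 went from 9.93 to 9.10 and from 10.14 to 9.67, and that of MCM7 from 9.44 to 8.74 and from 9.51 to 9.05. In each of these probes the drugs differed by more than in the brightest probe. The count of 19 was 9 without replicate 1 of crizotinib at 24 h and 12 without replicate 2 of ciclopirox at 24 h.

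**Figure D5:**
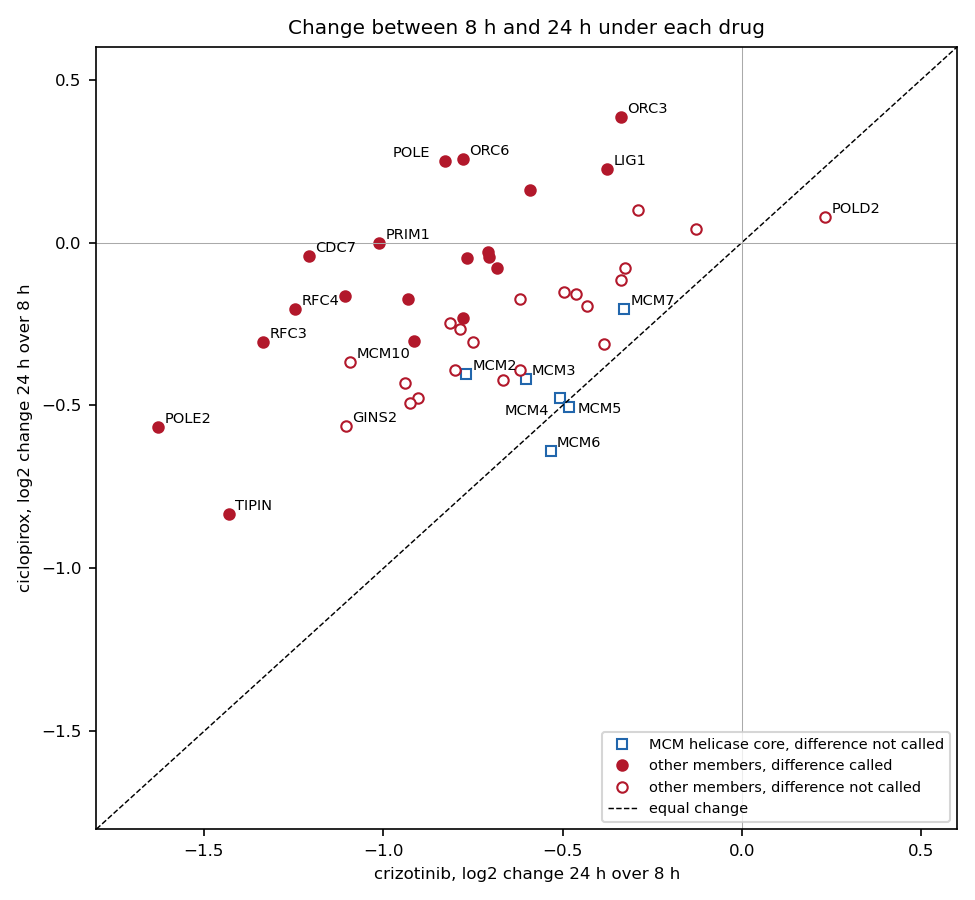
Log2 change between 8 h and 24 h under crizotinib (horizontal axis) and ciclopirox (vertical axis) for the 46 genes; squares are the MCM ring, circles the other genes, and filled points have a called difference between the drugs. The 6 squares, none filled, lie near the dashed line of equal change with MCM2 farthest from it, and the filled points lie above it, where the fall was larger under crizotinib.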

How the data were processed

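RNA from A375 cells was amplified from 300 ng of total RNA and biotin-labelled for Illumina bead arrays, per the labels' protocols. The scanner table that the authors deposited holds, per its file headers, the mean bead intensity of 47231 probes with a detection p-value beside every intensity. GenomeStudio was used per the submitters' processing notes, which give no version of it. Since 28.8% of these intensities were below 0, background had been subtracted. For 38220 of the probes the authors also deposited a normalized intensity on every array, linear between 12.0 and 38205.3, with array medians of 28.3 to 29.6. Its method of normalization is not stated in the sources used here.

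Normalized intensities were taken to log2 and fitted in R 4.3.3 with limma 3.58.1. The model had 1 mean for every group, used the 12 arrays together and left 7 residual degrees of freedom before empirical Bayes moderation. Tests were two-sided, with the Benjamini-Hochberg adjustment over all 16563 kept probes separately for the 9 comparisons. A probe with an adjusted p under 0.05 was called. The deposited detection p-values served only to count arrays per probe, which needs no column name. On each array, a value counted as above background once it passed the 99th percentile of the 20196 probes that no array detected. Where all arrays of 1 group missed this level, the fold is a bound, taken against the dim group's own value or the lowest value above background on that array, whichever was higher. The number of arrays limits the precision. The platform annotation gave 27002 probes 1 symbol, 4 several and 11214 none, and gene numbers led to an entry of the reference table for 26968 of the named probes. Replicate numbers did not pair arrays, since over 21 same-numbered pairs from different groups the correlation of deviations ran between -0.092 and 0.081. The fit was tested on simulated data.

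The genes and all lists were chosen with earlier results of these data known. By rule, values on every array are given for the gene of each role with the largest change at 24 h of crizotinib and for the 3 called genes with the largest changes in each direction and comparison, and other lists name at most 2 called genes. Further replication genes, and E2F1, E2F3 and E2F8 of the G1/S regulators, were named after their values had been seen. The alternatives tried were 1 probe per gene, no filter on dim probes, detection on all 12 arrays, the mean of a gene's probes, only the compared groups in the fit, limma-trend, 75th percentile scaling, scanner signals under the described names (neqc with an offset of 16) and in matched columns (offset of 50, median scaling), a replicate block and leaving out each array. A planned comparison of protein sequences is not analysed here.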

Additional observations from a re-analysis of the deposited data

Results flagged for a closer look

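The fall between 8 h and 24 h differed between the drugs, by limma's interaction term, for the 3 genes named under the rule of largest difference. CDC7 differed by -1.17 (crizotinib minus ciclopirox on the log2 scale, adjusted p = 0.008), POLE by -1.08 (adjusted p = 0.00652) and POLE2 by -1.06 (adjusted p = 0.00367). For POLE the arrays moved apart, with changes of -0.83 under crizotinib and 0.25 under ciclopirox, while CDC7 had changes of -1.21 and -0.042 and POLE2 of -1.63 and -0.57. In each of these 3 genes the 24 h crizotinib arrays lay below every other array.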

How the results depend on the processing

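The counts of called replication genes at 24 h of crizotinib (39), in its time course (40) and between the drugs at 24 h (33) stayed within 1.5 times under every alternative on the normalized table's names, and leaving out 1 array at a time gave 36 to 39, 36 to 39 and 24 to 30. With the scanner signals named by the samples' descriptions, the counts were 0 in 7 of the 9 comparisons (limma, with 1 gene at an unadjusted p under 0.05 at 24 h of crizotinib, 1 in its time course, 0 at 8 h of crizotinib, 2 at 24 h of ciclopirox, 21 in its time course, 5 between the drugs at 24 h and 5 in the drug difference over time), 4 at 8 h of ciclopirox, all lower, and 21 between the drugs at 8 h, all higher under crizotinib. In the same 7 comparisons limma called 0 of all 10330 genes in either direction (6.1% to 22.3% at an unadjusted p under 0.05). At 8 h of ciclopirox 0.755% of all genes were lower and 0.629% higher, and between the drugs at 8 h 10.4% were lower and 8.64% higher. Under those names, log2 changes turned sign for GINS4 at 8 h of ciclopirox (-0.35), TIPIN (0.32) and MCM8 (0.26) at 24 h of crizotinib, TIPIN (0.91), MCM6 (0.22) and POLE2 (0.90) between 8 h and 24 h of ciclopirox, CHAF1B (0.64), MCM8 (0.39) and MCM4 (0.45) between the drugs at 8 h, and RFC3 (0.20) and POLE (0.083) between the drugs at 24 h. Scanner columns given instead to the array whose values they follow kept 7 of the 9 counts within 1.5 times.

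The smaller counts moved with several settings. For settings other than the scanner signals the share of all genes called is not given here. Those counts are therefore not set beside the whole series. Without a filter on dim probes, which adds tests, limma called 0 genes at 8 h of either drug and between the drugs at 8 h (5, 8 and 9 at an unadjusted p under 0.05 for ciclopirox, crizotinib and their difference), 1 at 24 h of ciclopirox, 6 in its time course and 7 for the drug difference over time. With detection on all 12 arrays there were 3 calls for ciclopirox and 5 for crizotinib at 8 h. With only the compared groups in the fit, and so fewer arrays, limma called 0 genes for ciclopirox at either time and for crizotinib at 8 h (6 and 16 at an unadjusted p under 0.05 for ciclopirox at 8 h and 24 h, and 9 for crizotinib), 8 in the ciclopirox time course and 1 between the drugs at 8 h. With limma-trend the 8 h counts were 3 for ciclopirox, 8 for crizotinib and 5 between the drugs. Matched scanner columns gave 2 at 8 h of ciclopirox, where 7.96% of all genes were lower and 5.98% higher. They gave 5 at 8 h of crizotinib, where 6.44% of all genes were lower and 6.67% higher. The replicate block gave 0 at 8 h of ciclopirox (5 at an unadjusted p under 0.05), 5 at 24 h of ciclopirox and 1 between the drugs at 8 h. Leaving out 1 array gave 0 at 8 h of ciclopirox, 1 to 4 at 24 h of ciclopirox, 0 to 4 at 8 h of crizotinib, 4 to 12 in the ciclopirox time course, 0 to 3 between the drugs at 8 h and 9 to 17 for the drug difference over time. The cause of these moves was not tested. With 1 probe per gene, the mean of a gene's probes or 75th percentile scaling, all 9 counts stayed within 1.5 times.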
